A study of Gallus gallus with 12 samples.

Results

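Female and male MYCN lines were compared among the DMC lines, which are retinal cell lines made from chicken embryos of the White Leghorn strain. The members were chosen by 1 measured value. A line was taken as female where the deposited value of HINTW, a gene of the female-specific W chromosome, was above 1000, and as male where it was under 100. Of the 9 DMC lines, 4 were female and 5 were male, out of 12 libraries in the whole series, the other 3 being retinas. The sex of the embryos is not in the sample labels, so the classes rest on this gene. The lowest deposited HINTW value among the female lines was 17197 and the highest among the male lines was 13.3, so no line lay near either threshold.

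All lines came from retinas electroporated in ovo at E3.5 with an integrating piggyBac vector, in which the CAG promoter drives human MYCN and GFP. GFP-positive regions were dissected at E14 and grown in suspension. For the young lines the study's text gives separately electroporated retinas, and for the old and T58A lines the origin of each line is not given in the sources used here. The female lines were the young line DMC10 (under 4 weeks in culture) and the old lines DMC1, DMC2 and DMC3 (over 200 days), all with MYCN. The male lines were the young lines DMC8 and DMC9 with MYCN, and DMC4, DMC5 and DMC6, cultured for over 200 days, which carry MYCN with the T58A substitution. The labels also call DMC4 and DMC5 by the name RPMI and DMC6 by the name DMEM, both names of culture media, while the growth protocol gives RPMI medium for the lines in general. A difference in medium within the T58A lines was not tested. All 3 old lines were therefore female and all 3 T58A lines male, so sex and transgene cannot be told apart between these 2 groups. Among all 9 lines sex also goes with culture age in part, as 3 of the 4 female lines and 3 of the 5 male lines were old in culture. Only the young lines held both sexes with 1 transgene and 1 culture age, with DMC10 on 1 side and DMC8 and DMC9 on the other. The 3 control libraries came from E14 retinas of embryos that were not electroporated.

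Birds have a ZW sex chromosome system, in which females carry 1 Z and 1 W chromosome and males carry 2 Z chromosomes. The W chromosome is small, and most of its genes are relatives of genes on Z, from the time when both were 1 pair of autosomes. Birds do not silence a whole Z chromosome in males as mammals silence an X chromosome in females, and their Z genes are known for levels that follow the number of gene copies in part. HINTW is a diverged, multi-copy relative of the Z gene HINT1, which encodes a small nucleotide hydrolase.

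Expression values are normalized counts, which are the whole reads behind the deposited table divided by library size and by the TMM factor of the library. Between 20984957 and 35088450 reads were recovered per line. The human MYCN transgene was at 61789 normalized counts in DMC5 and between 167801 and 313643 in the other 8 lines. DMC4 and DMC6 stood apart from the rest. Across genes, the correlation of their log2 levels with the other 7 lines was 0.813 to 0.879, against 0.881 to 0.960 among those 7, and the chicken gene MYCN had 318 and 213 reads in them and at most 9 in any other line. Summed levels of the cone gene list ran from 166556 to 481702 in the female lines and from 19004 to 802748 in the male lines, where DMC4 and DMC6 were lowest. RBP4, a gene for a retinol-binding protein and 1 of the 20 genes of this list, weighed heavily in the highest sums. It gave 699348 of the 802748 in DMC5 and 399046 of the 481702 in DMC3, but 2581 of the 19004 in DMC4. The summed levels of the rod, ganglion, amacrine and horizontal, bipolar, Muller glia, pigment epithelium, blood and mesenchyme lists also overlapped between the classes. In bulk RNA, fewer cells of a type and less RNA per cell cannot be told apart.

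Genes on chromosome W checked the classes. They follow from the rule that set them, and their levels are described without a test, although they stayed in the fit below. The table holds 35 genes that the RefSeq annotation (assembly GRCg7b) puts on W, and 25 of them had at least 10 reads in at least 3 lines. For 23 of the 25, every female line was above every male line, with 47 reads or more in each female line and 12 reads or fewer in each male line. HINTW, which set the classes, is 1 of the 23, and the 12 reads were its own in DMC5. All 23 passed the filter on low counts through the female lines alone. Together these 23 genes took 0.167% of the reads of DMC10, 0.195% of DMC1, 0.181% of DMC2 and 0.241% of DMC3. The same genes had 18 reads in DMC8, 11 in DMC9, 4 in DMC4, 36 in DMC5 and 10 in DMC6. Without HINTW they had 29305 reads in DMC10, 36656 in DMC1, 34573 in DMC2 and 37160 in DMC3. In DMC5 they then had 24 reads, and the other male lines were unchanged. All 4 female lines thus expressed the whole set, and the male lines had traces of reads.

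HINTW led the W-linked genes, at 19204 normalized counts in DMC10, 16533 in DMC1, 19852 in DMC2 and 35726 in DMC3. It had no reads in DMC8, DMC9, DMC4 and DMC6 and 12 reads in DMC5. ATP5F1AW, the W copy of the gene for the alpha subunit of mitochondrial ATP synthase, was at 5924 to 8820 in the female lines and at most 11.9 in the male lines. HNRNPKL, the W relative of the RNA-binding protein gene HNRNPK, was at 4099 to 5236 and at most 2.39. SPIN1W, the copy of a histone reader gene, was at 836 to 1277 and had no reads in any male line. LOC107049046 was at 5764 to 7069, LOC430766 at 3599 to 4480, LOC427025 at 1916 to 2522 and LOC769000 at 1348 to 1655 in the female lines. LOC427025 carries SCC2W among its synonyms in RefSeq, the name of a W copy of the cohesin loader gene NIPBL, and the other 3 have no gene name there. LOC374195, with CHD1W among its synonyms, was at 999.97 in DMC2 and up to 1206 in DMC3, and at most 4.59 in a male line.

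Most of these genes varied less than 2-fold among the female lines. For 19 of the 23, the highest female line was less than 2 times the lowest, and the median of that ratio was 1.49. HINTW had a ratio of 2.16. The ratio was not taken for genes off W, so these values do not set the W-linked genes apart from others. LOC107055444 had the widest ratio of the 23, 10.6, at 149 normalized counts in DMC10, 920 in DMC1, 86.4 in DMC2 and 232 in DMC3. ST8SIA3L was high in DMC10 (222) and DMC1 (317) and low in DMC2 (57.3) and DMC3 (44.1). Both of these genes were picked after their values were seen.

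**Figure D1:**
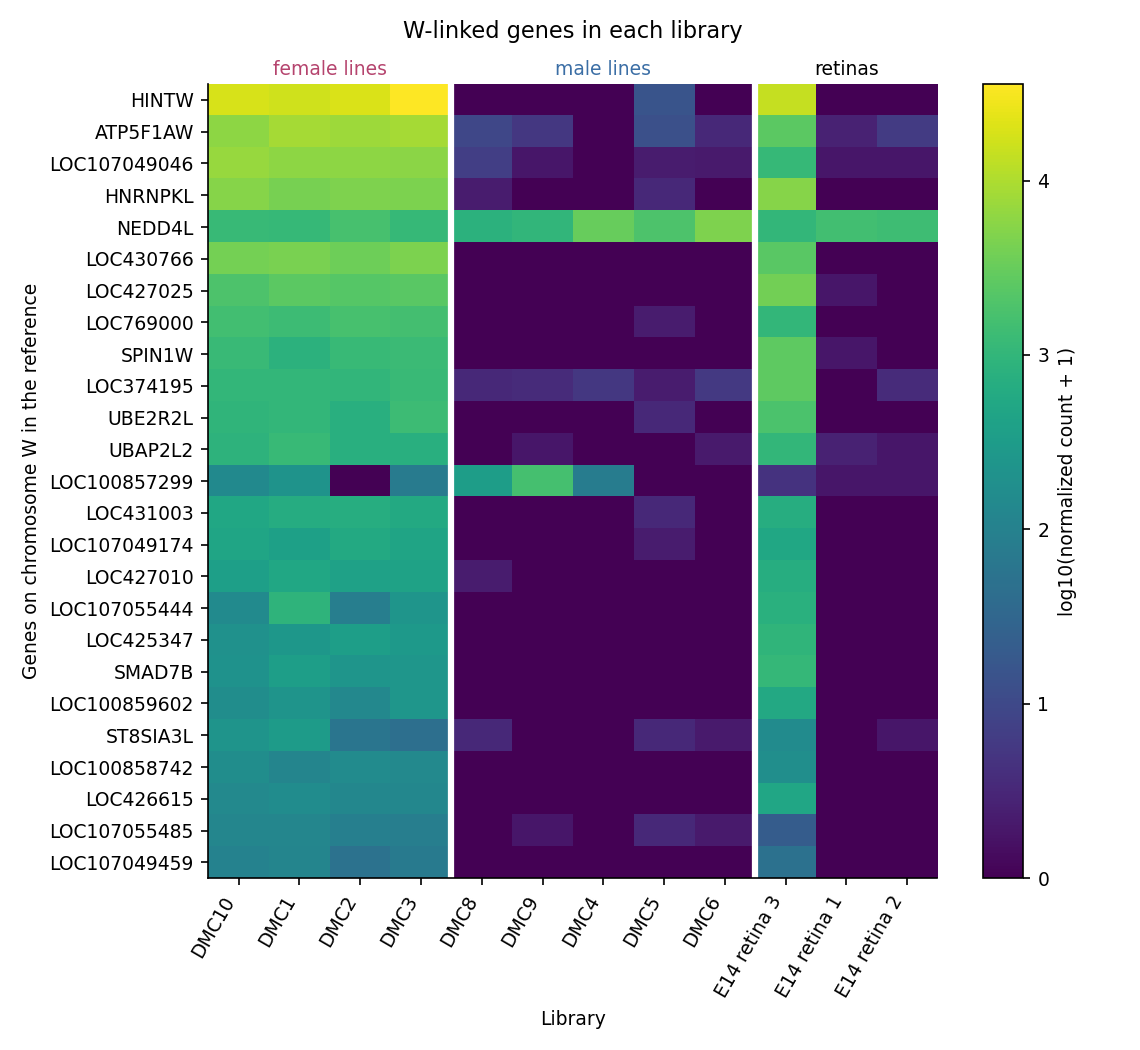
W-linked genes (rows, by mean level over the 9 lines) in the 12 libraries (columns); colour is log10 of the normalized count plus 1. The 4 female lines and E14 retina 3 carry 23 of the 25 genes, the 5 male lines and the other retinas carry traces of them, and NEDD4L and LOC100857299 do not follow the classes.

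The remaining pair of W-linked genes did not separate the classes. NEDD4L, which encodes a ubiquitin ligase, was at 1109 to 1702 normalized counts in the female lines and at 852 to 4696 in the male lines, so a gene that the reference places on W had reads in every male line. LOC100857299 was at 1622 in DMC9, at 0 in DMC2, DMC5 and DMC6, and in between elsewhere.

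The E14 retinas gave another view of the same genes in libraries that set no class. E14 retina 3 had 14172 normalized counts of HINTW and reads of all 23 genes, which took 0.197% of its library. E14 retinas 1 and 2 had no HINTW reads and 7 and 12 reads over the 23 genes. These libraries are used below as a description only.

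The question for the rest of the genome was which genes differ between the classes. Each gene was fitted with limma as log2 of the normalized count plus 1, female minus male, over 14061 genes in the 9 lines. A gene passed where its adjusted p (Benjamini-Hochberg) was at most 0.05. The study's criteria add an absolute log2 difference of at least 1. Over all genes tested, 0.0711% were called lower and 0.228% higher in the female lines at an adjusted p of at most 0.05. Of the genes called lower, 8 were on chromosome Z and 2, kept by the filter on low counts through the male lines alone, on an autosome. Of those called higher, 23 were the W-linked genes above, which follow from the rule, and 9 had no place in the annotation used. The W-linked genes and these 9 had to differ, and both stayed in the adjustment of p. With the W-linked genes left out of it, 1 of the 8 Z genes passed, so the Z calls depend on them. No gene on Z was called higher (3 had an unadjusted p under 0.05 in limma), and neither was any autosomal gene (281 had an unadjusted p under 0.05).

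Z-linked genes were lower in the female lines as a chromosome. Of the 738 genes on Z in the table, 534 were tested. Their median log2 difference was -0.53, a ratio of 0.693, where the median of 11264 autosomal genes was 0.04 and that of all genes tested was also 0.04. The quartiles of the Z genes were -0.90 and -0.09. Of the 534, 424 (79.4%) were lower in the female lines, against 46.0% of autosomal genes. For 318 Z genes (59.6%) the difference lay between -1 and 0, against 41.6% of all genes tested. For 106 (19.9%) it was -1 or beyond, against 4.78% of all genes tested. No test was made of these medians, and genes of 1 chromosome are not independent replicates.

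Single Z genes were also separated more often than genes at large. The classes did not overlap for 122 Z genes that were lower (22.8%) and 2 that were higher in the female lines, where 1.37% of all genes tested were lower and 1.27% higher without overlap. All genes tested include the Z genes themselves and the W-linked genes. Of autosomal genes, 0.542% were lower and 0.897% higher without overlap. An unadjusted p under 0.05 was reached by 176 lower and 3 higher Z genes, against 2.37% lower and 2.80% higher of all genes tested. On the autosomes, 121 lower and 281 higher genes of 11264 reached it.

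Each line could also be placed by its own Z level. For each gene the log2 level was taken relative to the mean of the 9 lines, and the median over autosomal genes was subtracted from the median over Z genes. This value was -0.45 in DMC10, -0.21 in DMC1, -0.31 in DMC2 and -0.28 in DMC3. It was 0.26 in DMC8, 0.16 in DMC9, 0.32 in DMC4, 0.33 in DMC5 and 0.28 in DMC6. All 4 female lines were below all 5 male lines, at -0.31 ± 0.10 (SD, n = 4) against 0.27 ± 0.07 (SD, n = 5). DMC4 and DMC6, which stood apart in overall expression, lay with DMC5 at the male end. Under the other scalings, pseudocounts and filters, the female lines ranged from -0.46 to -0.17 and the male lines from 0.14 to 0.36. Relative to the mean of the 3 retinas, E14 retina 3 was at -0.36 and retinas 1 and 2 at 0.21 and 0.16.

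**Figure D2:**
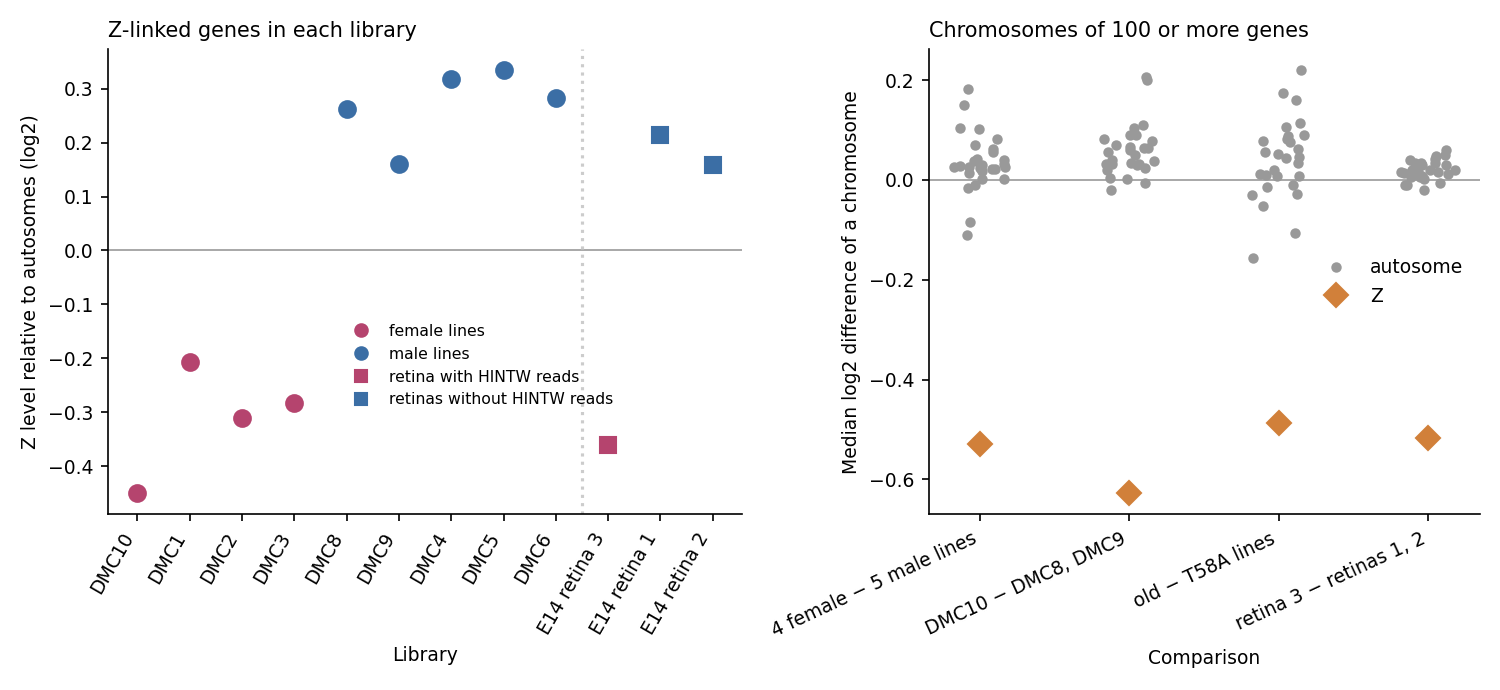
Left: median level of Z-linked genes relative to autosomal genes in each library (log2; circles, 9 DMC lines relative to their mean; squares, 3 retinas relative to theirs), from -0.45 in DMC10 to 0.33 in DMC5. Right: median log2 difference of each chromosome with 100 or more tested genes (points) in 4 comparisons; Z (diamonds) lies between -0.63 and -0.49 and the 28 autosomes between -0.16 and 0.22.

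No autosome with 100 or more tested genes had a median as low as that of Z. Over these 28 autosomes the chromosome median ran from -0.11 to 0.18 in the 9 lines. The Z difference was also spread along the chromosome. In 10 blocks of 50 or more neighbouring Z genes, in the gene order of GRCg7b, the median ran from -0.69 (block from MARCHF3 to PLPPR1) to -0.33 (EFNA5 to LMNB1). By expression level, the 107 Z genes of lowest level had a median of -0.60 and the 107 of highest level one of -0.47.

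The class difference was then taken apart into comparisons that share no library. In the young lines, where age and transgene were the same, DMC10 had a median Z difference of -0.63 from DMC8 and DMC9, and 454 of 534 Z genes (85.0%) were lower. The 3 old lines had a median of -0.49 against the 3 T58A lines, with 387 Z genes (72.5%) lower. E14 retina 3 had a median of -0.52 against retinas 1 and 2, with 476 (89.1%) lower. The autosomal medians in these comparisons were 0.04, 0.05 and 0.02. The spread of the Z genes was widest between old and T58A lines, with quartiles of -1.03 and 0.08, and narrowest in the retinas, with -0.77 and -0.23. Autosomal genes had the same order of spread. Their quartiles were -0.35 and 0.51 between old and T58A lines, -0.17 and 0.27 in the young lines and -0.10 and 0.15 in the retinas. DMC10 is 1 line and E14 retina 3 is 1 retina, so these values have no replicate on their female side.

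**Figure D3:**
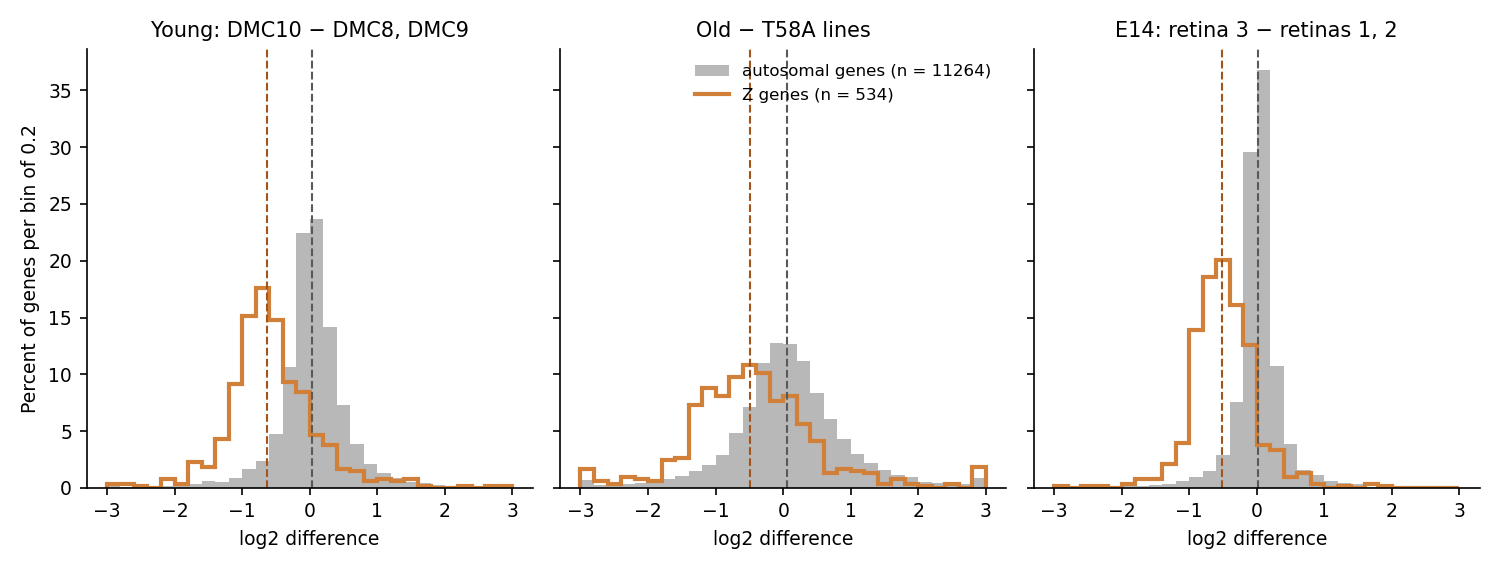
Distribution of log2 differences of 534 Z-linked genes (line) and 11264 autosomal genes (filled), as percent of genes per bin of 0.2, in the young lines, between old and T58A lines, and in the E14 retinas; values beyond 3 are in the outer bins and dashed lines are medians. The Z medians are -0.63, -0.49 and -0.52, and the autosomal medians 0.04, 0.05 and 0.02.

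Of the 534 Z genes, 326 (61.0%) were lower in all 3 comparisons, against 13.4% of all genes tested, and 16 were higher in all 3, against 18.7%. By a stricter measure, 192 Z genes (36.0%) were lower by at least 0.5 both in the young lines and between old and T58A lines, where 4.92% of all genes were. Only 11 were higher by as much in both, against 6.12% of all genes. Across the 534 Z genes, the Spearman correlation of the differences was 0.51 between young lines and retinas, 0.34 between old against T58A lines and retinas, and 0.29 between young and old against T58A lines. Across autosomal genes it was 0.08, 0.10 and 0.12. These correlations run across genes within few libraries and carry no test.

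When the label group was a term in the fit, only DMC10 against DMC8 and DMC9 set the size of the difference. Its error came from the spread within the young male, old and T58A lines together. Limma called no Z gene and no autosomal gene in it, which is not a result about the young lines alone. In that fit 60 Z genes (11.2%) had an unadjusted p under 0.05 and were lower, against 14 of 11264 autosomal genes. When only old and T58A lines were fitted, no Z gene was called lower either. In that fit 142 of 523 Z genes (27.2%) were lower with an unadjusted p under 0.05, against 387 of 10967 autosomal genes (3.53%). Of all genes tested in that fit, 0.0296% were called lower and 0.214% higher, and with the label group as a term 0% and 0.156%.

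Of the 8 Z genes that passed in the 9 lines with W-linked genes in the adjustment, 7 are described here, and they have different known roles. CCNH (ENSGALG00000015641) encodes cyclin H, the partner of the kinase CDK7 in the complex that activates other cyclin-dependent kinases. It was at 744 normalized counts in DMC10, 764 in DMC1, 638 in DMC2 and 717 in DMC3, and at 1573.5 in DMC8, 1447 in DMC9, 1363 in DMC4, 1508 in DMC5 and 1643 in DMC6. The spread within each class was small beside the gap, and the log2 difference was -1.07 (standard error 0.16, limma adjusted p = 0.0198), with -1.02 in the young lines, -1.09 between old and T58A lines and -0.84 in the retinas. The class means were 715 ± 55.3 (SD, n = 4) and 1507 ± 109 (SD, n = 5). CDK7, also on Z, was at 727 ± 100.1 in the female and 1200.2 ± 220.1 in the male lines (-0.72, standard error 0.20), without overlap, and did not pass (limma adjusted p = 0.476). GTF2H2, a Z-linked subunit of the transcription factor TFIIH to which both belong, differed by -0.71 (limma adjusted p = 0.776). MNAT1, the assembly factor of the kinase complex, is on chromosome 5. It differed by -0.66 over the 9 lines, by 0.17 without DMC4 and DMC6, by -0.01 in the young lines and by 0.13 in the retinas. MNAT1 and GTF2H2 were picked after their values were seen.

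NOL6 (ENSGALG00000030730), a nucleolar protein gene of ribosome assembly, was at 2637 in DMC10, 2773 in DMC1, 2739.8 in DMC2 and 2907 in DMC3, and at 6299 in DMC8, 6095 in DMC9, 4729.6 in DMC4, 7697 in DMC5 and 5306 in DMC6. The female lines were almost equal, and the male lines were all higher and more variable. The log2 difference was -1.11 (95% interval -1.49 to -0.72, limma adjusted p = 0.0265). It was -1.23 in the young lines and -1.04 both between old and T58A lines and in the retinas.

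The remaining 5 passed closer to the threshold. FAM172A was at 624.7 ± 56.1 normalized counts in the female and 1396 ± 230.2 in the male lines (-1.15, limma adjusted p = 0.0396). LOC427439 was at 3412 ± 510.4 and 7751 ± 1589.7 (-1.17), ZFAND5, which encodes a zinc finger protein that binds the proteasome, at 1721 ± 209.5 and 3304 ± 333 (-0.94), and WDR70 at 1448 ± 139 and 2789 ± 321.5 (-0.94). PPWD1, a peptidyl-prolyl isomerase gene of the spliceosome, was at 425 ± 54.3 and 1156 ± 314 (-1.41). The limma adjusted p of these 4 genes was 0.0456. ZFAND5 and WDR70 missed the log2 difference of 1 that the study's criteria ask for, so 6 Z genes passed both, where 0.0569% of all genes tested were called lower by both. All 8 were lower in the young lines, between old and T58A lines and in retina 3.

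**Figure D4:**
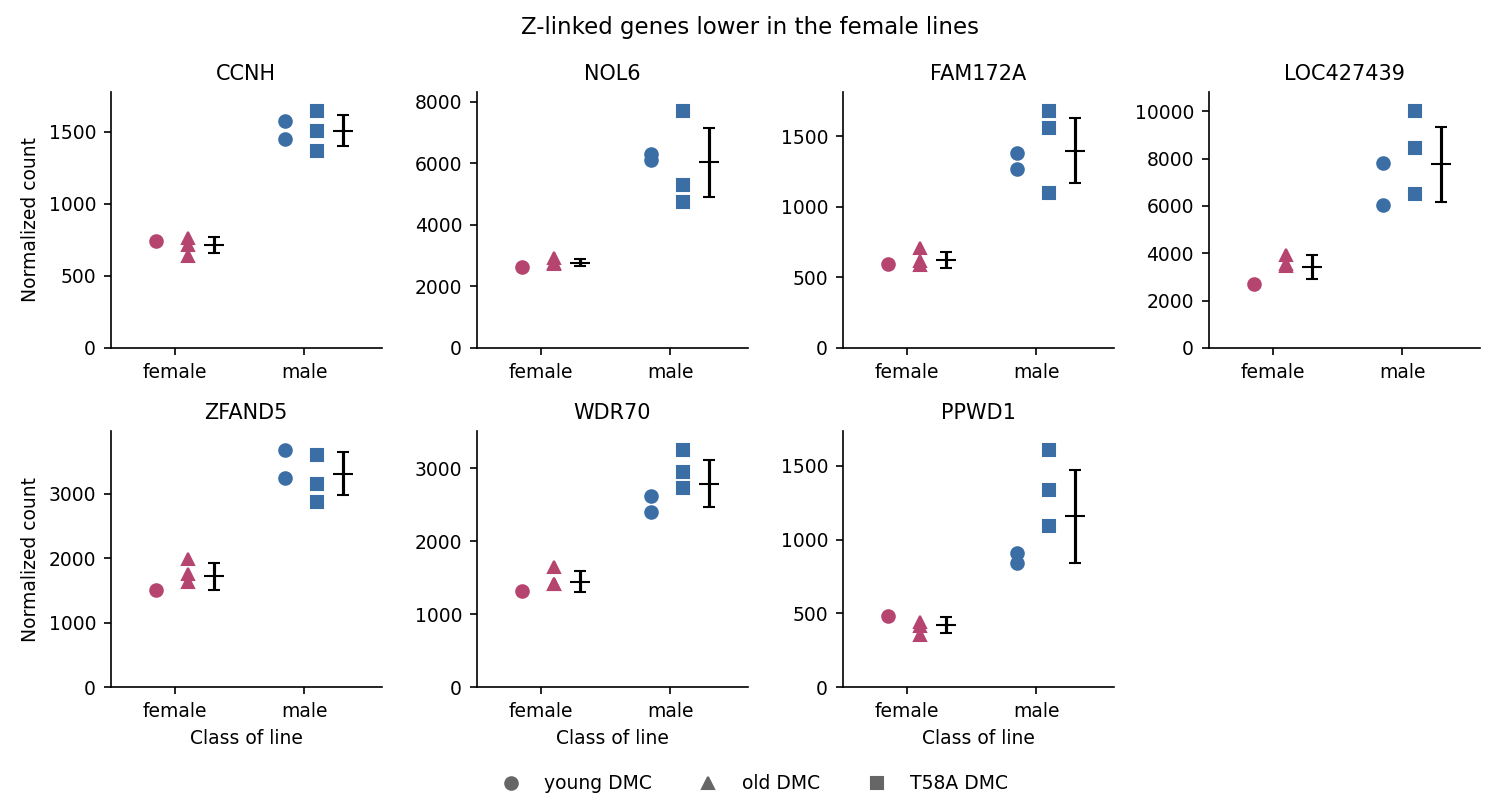
Normalized counts of 7 Z-linked genes that passed, in the 4 female (left) and 5 male lines (right) of each panel; circles are young, triangles old and squares T58A DMC lines, and the bars give the mean and SD. In every panel all female lines lie below all male lines, as for CCNH at 638 to 764 against 1363 to 1643.

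These calls were few and depended on which genes and lines were in the fit. The W-linked genes enter the adjustment of p, and when they were left out of it 1 of the 8 Z genes passed, and CCNH did not (limma adjusted p = 0.0589). The called genes with no place in the annotation and the called autosomal genes stayed in that adjustment. They passed the filter on low counts through 1 class alone, and a fit without them was not run, so the adjusted p of the Z genes rests in part on them. Each fit that left out 1 of the 9 lines called between 0 and 4 Z genes lower, with 0 without DMC10 and without DMC1. Without both DMC4 and DMC6, the lines that stood apart, 9 were called, where 0.0734% of all genes tested were called lower and 0.242% higher. The log2 difference of CCNH stayed between -1.15 and -1.02 over the 22 alternatives tried, and its adjusted p exceeded 0.05 in 12 of them. Just outside the threshold, and named after their values were seen, were among others XRCC4 (limma adjusted p = 0.0512), CHD1Z (0.0528), TLN1 (0.0537) and XPA (0.0537).

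A list of DNA repair and checkpoint genes had 19 tested members, of which 10 are on Z. Of these 10, which include the centromere genes CENPK and CENPH, 9 were lower and 1 higher, with a median of -0.41, where all Z genes had -0.53. None passed the test, and 4 had an unadjusted p under 0.05 in limma, where 33.0% of all Z genes were lower with such a p. XRCC4, which holds DNA ligase IV in end joining, was at 134 in DMC10, 225 in DMC1, 168 in DMC2 and 190.5 in DMC3. It was at 471 in DMC8, 431 in DMC9, 477 in DMC4, 465 in DMC5 and 610 in DMC6. The classes were well apart, at -1.46 on the log2 scale (standard error 0.25), with -1.74 in the young lines and -0.63 in the retinas. Its autosomal partners LIG4 (-0.25) and NHEJ1 (-0.02) had overlapping classes.

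XPA, a gene of nucleotide excision repair, was at 2442 ± 434 and 5274 ± 908 (-1.11, limma adjusted p = 0.0537). APTX, for the single-strand break enzyme aprataxin, was at 365 ± 113 and 822 ± 154 (-1.20, limma adjusted p = 0.177), and the mismatch repair gene MSH3 at 628 ± 196 and 1347 ± 308 (-1.12, limma adjusted p = 0.272). The classes of these 4 repair genes did not overlap, where 22.8% of all Z genes were lower without overlap. XRCC4, XPA, APTX, MSH3, FANCG, RAD17, LIG4 and NHEJ1 were picked after their values were seen. The other 6 had overlapping classes. FANCG, for example, was at 489 to 668 in the female lines, at 174 in DMC4 and 299 in DMC6, and at 1218 to 1670 in DMC8, DMC9 and DMC5. Without DMC4 and DMC6 its difference was -1.34 and passed (limma adjusted p = 0.0480). RAD17, a checkpoint clamp loader gene, was at nearly the same level in both classes (0.06), and was lower in retina 3 (-0.94). The 9 other members of the list that were tested are not on Z, and their median was 0.32 over the 9 lines. It was -0.18 in the young lines, 0.68 between old and T58A lines and 0.03 in the retinas. The medians of the 10 Z members in these comparisons were -1.02, -0.14 and -0.85.

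Z copies of genes that also have a copy on W were lower throughout. Of 24 pairs listed, 21 Z copies were tested and all 21 were lower in the female lines, from -1.44 (CHD1Z) to -0.27 (SUB1), with a median of -0.70. In the young lines the median was -0.95, between old and T58A lines -0.70 and in the retinas -0.66. Over all Z genes these medians were -0.53, -0.63, -0.49 and -0.52, in the order of the 9 lines, the young lines, old against T58A lines and the retinas. None of the 21 passed the test. The classes did not overlap for 10 of them, where 1.37% of all genes tested and 22.8% of Z genes were lower without overlap. In limma 17 had an unadjusted p under 0.05, where 2.37% of all genes and 33.0% of Z genes were lower with such a p. HINT1, the Z relative of HINTW, was at 446 ± 49.7 in the female and 718 ± 225 in the male lines (-0.63, limma adjusted p = 0.876), and its classes overlapped because DMC4 was at 407. MIER3, a chromatin regulator gene, was at 373 to 536 against 784 to 1084 (-1.14, limma adjusted p = 0.0572).

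For 6 of the pairs the reads of both copies were added up, a step chosen after the values were seen. HINT1 with HINTW and ST8SIA3Z with ST8SIA3L were not added up, so the 6 do not stand for all pairs. HINTW was at 16533 to 35726 in the female lines, and HINT1 was at 407 to 970 in the male lines. ST8SIA3L was at 44.1 to 317 in the female lines, where ST8SIA3Z was at 252 to 536, against 464 to 1426 in the male lines. HNRNPK was at 6082 in DMC10, 5207 in DMC1, 7413 in DMC2 and 7986 in DMC3, and at 10099 to 13945 in the male lines. With HNRNPKL added, the female lines were at 9306 to 12560 and lay among the male lines, at 0.923 of the male mean where HNRNPK alone was at 0.543. CHD1Z, for a chromatin remodelling enzyme, was at 1008 to 1168 in the female lines and 2080 to 4722 in the male lines. The sum with LOC374195 came to 2025 to 2374, at 0.691 of the male mean, with DMC4 and DMC6 the highest male lines.

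UBE2R2, for a ubiquitin-conjugating enzyme, was at 877 to 1197 and 1115 to 1804, and the sum with UBE2R2L, at 1649 to 2501, exceeded the male mean 1.33 times. The sums of ATP5A1Z with ATP5F1AW, SPIN1Z with SPIN1W and UBAP2 with UBAP2L2 were at 0.906, 0.829 and 0.816 of the male mean, where the Z copies alone were at 0.673, 0.611 and 0.606. The classes of the sums overlapped for all 6 pairs, and those of the Z copies alone for 4. A longer transcript gives more reads, so the copies cannot be compared in level, and these sums carry no test. How reads that match both copies were assigned was not tested.

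**Figure D5:**
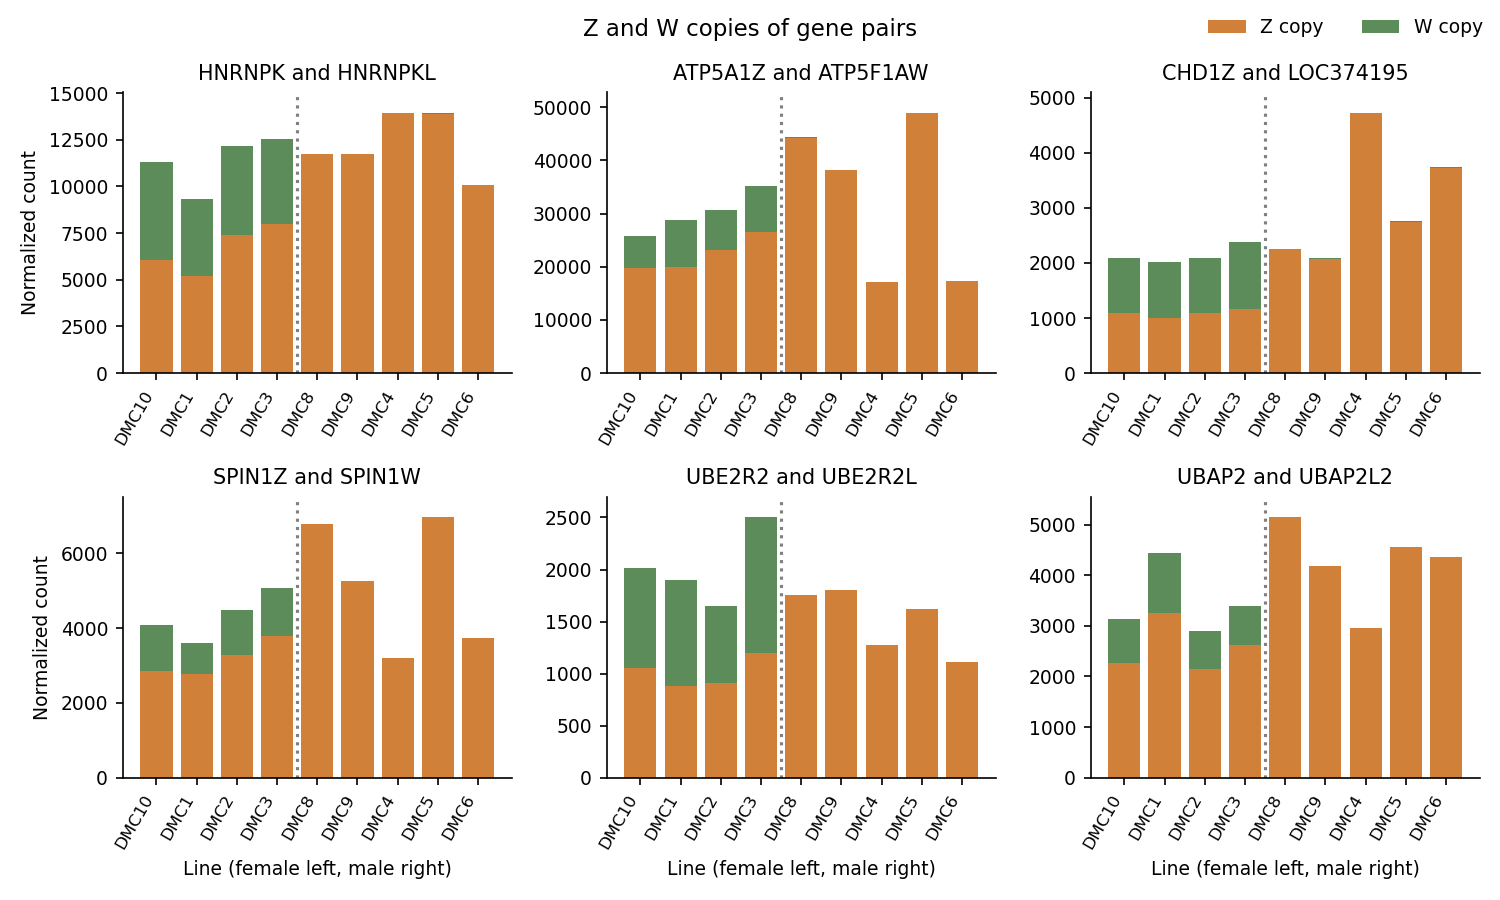
Normalized counts of the Z copy (lower part of each bar) and the W copy (upper part) of 6 gene pairs in the 4 female lines (left of the dotted line) and the 5 male lines (right). With the W copy the female bars reach the range of the male bars for each pair, as for HNRNPK with HNRNPKL at 9306 to 12560 against 10099 to 13945.

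Of the 534 Z genes tested, 110 were higher in the female lines, against 6080 of 11264 autosomal genes, and none of the 110 passed. The classes did not overlap for 2, SLC1A1 and PRUNE2, which were named for this after their values were seen. SLC1A1, a glutamate transporter gene of neurons, was at 383 in DMC10, 117 in DMC1, 254 in DMC2 and 409 in DMC3. It was at 66.0 in DMC8, 86.3 in DMC9, 32.3 in DMC4, 0 in DMC5 and 10.3 in DMC6. E14 retina 3 was also the highest retina, at 528 against 198 and 206. The log2 difference over the lines was 3.82 with a wide error (standard error 1.18, limma adjusted p = 0.620). PRUNE2 was at 98.6 to 133 in 3 female lines, 542 in DMC1 and 13.8 to 44.9 in the male lines (2.71, limma adjusted p = 0.211), whereas E14 retina 3, at 681, was below retinas 1 and 2, at 1026 and 870.

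RBP4 and PDE6B, also on Z, were lowest in DMC4 and DMC6. RBP4, a gene for a retinol-binding protein, was at 112017 to 399046 in the female lines, at 2581 in DMC4 and 6826 in DMC6, and at 159490 to 699348 in DMC8, DMC9 and DMC5. PDE6B, a phosphodiesterase subunit gene of photoreceptors, was at 4142 to 21098 in the female lines, at 99.2 in DMC4 and 384 in DMC6, and at 1526 to 23728 in the other male lines. Their differences were 1.95 and 2.43 over the 9 lines, 0.07 and 0.40 in the young lines, and -0.53 and 0.34 without DMC4 and DMC6. None of these passed. Both genes were picked after their values were seen.

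The cyclin-dependent kinase inhibitor genes CDKN2A and CDKN2B, neighbours on Z, had opposite signs in the partial comparisons. CDKN2A, which encodes the tumour suppressor ARF in chicken, was at 103 in DMC10, 2411 in DMC1, 3152 in DMC2 and 1899 in DMC3. It was at 228 in DMC8, 759 in DMC9, 729.9 in DMC4, 19.1 in DMC5 and 181 in DMC6. The 3 old lines were above all other lines, and DMC10 was the lowest young line. The log2 difference was 2.36 over the 9 lines (95% interval -0.37 to 5.09, limma adjusted p = 0.876), -2.005 in the young lines and 4.13 between old and T58A lines. The difference between these last 2 did not pass (limma interaction term, adjusted p = 1.00). CDKN2B, for a kinase inhibitor that holds cells before S phase, was at 629 in DMC1, 66.7 in DMC2, 32.9 in DMC3 and at most 14.5 in every other line, and had no reads in DMC10, DMC5 and the retinas. Its difference was 4.33 between old and T58A lines and -2.78 in the young lines. The sign in the young lines rested on 10 reads in DMC8 and 3 in DMC9, so it lay near the floor.

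In the cell cycle list, CCNH was the only member that passed. Of 36 members tested, 5 are on Z, and 0.0711% of all genes tested and 1.498% of Z genes were called lower. SKP2, a Z-linked ubiquitin ligase subunit gene, was at 3793 ± 319 in the female and 3811 ± 1017 in the male lines, a log2 difference of 0.04 (95% interval -0.46 to 0.53). Of the 31 members not on Z, 24 were higher and 7 lower in the female lines, with a median of 0.27. Of autosomal genes at large, 46.0% were lower. None of the 31 had even an unadjusted p under 0.05 in limma. Their median was -0.09 in the young lines, 0.62 between old and T58A lines and 0.08 in the retinas. The higher level lay between old and T58A lines, where sex and transgene cannot be told apart, and was not seen in the young lines. CCNB1, the mitotic cyclin B1 gene, was at 6108 ± 2641 and 6059.5 ± 3452 (0.16, limma adjusted p = 0.955). The T58A lines differed widely, at 1893 in DMC4, 3345 in DMC6 and 10266 in DMC5. DMC8 was at 6481, DMC9 at 8311 and the female lines at 3496 to 9639. Whether the list as a whole follows DMC4 and DMC6 was not tested.

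Genes of sexual development did not separate the classes. DMRT1, the Z-linked gene whose copy number directs testis formation in chicken, had no reads in any line. HEMGN, a Z-linked gene of the male gonad in chicken, was at 23.1 to 127 in the female lines, and at 1319.5 in DMC6 and 42.4 to 280 in the other male lines (-1.53, limma adjusted p = 0.876). Of the 9 other members tested, 6 were lower and 3 higher, and none passed. No member of the lists of chromatin regulators and of MYC network genes passed either, nor did any member of the retinal, blood and mesenchyme lists.

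Outside the sex chromosomes, 2 named genes passed both criteria, and both lie on chromosome 16, which carries the major histocompatibility complex regions of the chicken. YLEC8, a C-type lectin gene of the MHC-Y region, had no reads in DMC10, DMC1 and DMC2 and 1 read in DMC3. It was at 174 in DMC8, 42.2 in DMC9, 1116 in DMC4, 938 in DMC5 and 1786 in DMC6. Taking 3 reads as the limit in each female line put the mean limit of these lines at 2.96 normalized counts. By that mean, YLEC8 was at least 14.3-fold lower in the female lines than in DMC9, the lowest male line. It was at least 274-fold lower than the male mean, which the T58A lines raise. It passed the filter on low counts through the male lines alone, so it had to differ, and its call (limma adjusted p = 0.00313) is given as a description. In the retinas it had at most 1 read in each library, so both sides were under that limit. ZNFY4, a zinc finger gene, was at 13.3 in DMC10, 17.3 in DMC1, 7.51 in DMC2 and 5.63 in DMC3. The male lines were at 101 in DMC8, 82.7 in DMC9, 583 in DMC4, 282 in DMC5 and 175 in DMC6 (-4.11, standard error 0.63, limma adjusted p = 0.0241). ZNFY4 had 12 reads in DMC10, 18 in DMC1, 8 in DMC2 and 6 in DMC3. DMC10 and DMC1 thus reached 10 reads, too few lines for the filter, and it too could pass only through the male lines. Its call is also given as a description.

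The female lines were low and the male lines high for both genes, with the T58A lines above the young male lines. Their differences were -6.44 and -2.69 in the young lines, where DMC10 was the only female line. Without DMC4 and DMC6 the differences were -7.35 and -3.61. E14 retina 2 had 57.2 normalized counts of ZNFY4, against 11.5 in retina 1 and 10.0 in retina 3, so the retinas did not split by HINTW. With voom weights neither gene was called, at differences of -9.26 and -4.15. ZNFY4 kept its call in 11 of 22 alternatives, and YLEC8 lost its call in 2. Both passed the filter through the male lines alone, so these calls are a description too.

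The 9 genes called higher that have no place in the annotation used are given as a description. All passed the filter on low counts through the female lines alone, so they had to differ. Each had 3 reads or fewer in every male line and between 18.8 and 1833 normalized counts in every female line. ENSGALG00000041221 was at 1268 in DMC10, 988 in DMC1, 1495 in DMC2 and 1833 in DMC3, and at 862 in E14 retina 3. ENSGALG00000048286 was at 1054, 1108, 759 and 1166 in the same lines and at 2357 in E14 retina 3. Retinas 1 and 2 had at most 13.3 normalized counts of any of the 9. The files give no chromosome for them.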

How the data were processed

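RNA was measured by stranded, polyA-selected RNA-seq in 9 DMC lines and 3 E14 retinas, in 4 label groups of 3 libraries. Per the submitters' processing notes, the authors counted reads with featureCounts 2.0.0 on galGal6 and normalized them with the TMM method of edgeR. The deposited values are a signal, gene counts scaled by the authors with TMM factors, and were not treated as raw counts, so the count test of the study was not run. All 205632 values above 0 were whole numbers of reads once multiplied by 1 of 12 constants between 0.842 and 1.20, the TMM factors of the libraries, within a tolerance of 1e-09. In 8.36% of them the constant was that of the value's own library. The recovered reads, 20984957 to 35088450 per line, were therefore divided by each library's own effective size, and the deposited values as they stand served as an alternative.

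Genes with at least 10 reads in at least 3 of the 9 lines were kept. A linear model with a trended prior was fitted to log2(normalized count + 1) in limma 3.58.1 (R 4.3.3), female minus male, and p-values were adjusted over all genes tested (Benjamini-Hochberg, two-sided). The script was tested on simulated data. Tables were made with pandas 2.3.3 and numpy 2.4.6 in Python 3.11.15, and plots with matplotlib 3.10.9. Chromosomes came from RefSeq (GRCg7b), matched by Entrez ID for 14940 of 24358 genes and by symbol for 343, with 9075 not matched. That build differs from the one the files use, so no coordinates are given. P-values measure the spread between lines, which may be technical where separate retinas are not stated. Genes that share reads with a close copy, as Z and W copies and the MHC-Y genes can, are uncertain in their counts.

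The classes, the gene lists and the genes added to them were chosen with earlier results of these data known. The named genes were HINTW and the 8 other W-linked genes of highest mean, Z copies of listed Z-W pairs, Z genes that passed, named autosomal genes that passed both criteria without overlap and with a mean of at least 50 in the higher class, list members that passed, CDKN2A, CDKN2B, SKP2, CCNB1, CDK7, DMRT1 and HEMGN. Others are marked as picked after their values were seen. One gene that passed is not reported here. Alternatives covered scaling, pseudocount, filter, voom weights, the samples fitted and each line left out.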

Additional observations from a re-analysis of the deposited data

Results flagged for a closer look

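Among 133 sets of values, each of 1 gene in 1 class, 8 had a line whose gap to its nearest neighbour, as a share of the range of the class, was above the 95% limit of Dixon's test. Chance alone gives about 1 in 20. DMC1 stood apart from the other female lines in 3 of them, as the highest for PRUNE2 (0.922) and CDKN2B (0.894) and the lowest for XPA (0.906). DMC3 was the highest female line for LOC374195 (0.918) and for YLEC8, where the share was 1 because the other female lines had no reads. DMC2 was the highest female line for MNAT1 (0.891). DMC6 was the highest male line for HEMGN (0.814) and XRCC4 (0.744). No gene outside W had a class difference that differed between the young lines and the old against T58A lines at an adjusted p of at most 0.05 (limma interaction term). Of the 14036 genes tested outside W, 164 had an unadjusted p under 0.05 for this term.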

How the results depend on the processing

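Of the Z-linked genes that passed, none reversed its direction under the 22 alternatives, and the lower Z level of the female lines kept its sign in each. The median Z difference of -0.53 was -0.33 with the deposited values, where the autosomal median was 0.20, and -0.63 with the label group as a term. Leaving out each line gave -0.55 to -0.47. The number of Z genes called lower, 8, was 0 with the deposited values, the label group as a term or old and T58A lines only, 1 without W-linked genes, 3 without a filter or with voom weights, 15 with at least 50 reads in 3 lines, and 0 to 4 with 1 line left out. The number of genes called lower by both criteria, 8, was 2 with the deposited values, 5 without a filter, 14 with at least 50 reads, 3 with voom weights, 0 with the label group as a term, 4 with old and T58A lines only, 2 without W-linked genes and 1 to 6 with 1 line left out. Without the genes placed on W, the number called higher was 9, all with no place in the annotation used, so a place on W is not excluded for them. That number was 3 with the label group as a term, 5 with all 12 libraries, and 9 to 10 with 1 line left out. Without DMC4 and DMC6, an alternative chosen after seeing the data, 9 Z genes were called lower, and the Z median was -0.52. The causes were not tested. No paired analysis was possible because the line numbers are unique to each line and pair no libraries of the 2 classes.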
